A study of Oryza sativa Japonica Group with 9 samples.

Results

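P-deficient rice roots were compared with control roots over every gene of the table that holds both, 35059 of the 35902 genes listed in the series. The plants were Oryza sativa Japonica of the cultivar Nipponbare, a standard laboratory rice. Roots were taken from control nutrients or from P deficiency, with 3 TruSeq RNA libraries in each group, and all 6 libraries entered the comparison. The series holds 3 further libraries from N-deficient roots, used here only where a P-deficient value was set against them. Plant age, the length of treatment, the phosphate concentration and any pooling of plants were not given in the sources used here.

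Phosphorus is taken up from soil as inorganic phosphate, which is scarce in solution. In rice, the MYB factor PHR2 drives phosphate starvation genes, and SPX proteins bind PHR2 while phosphate is plentiful and keep it from its targets. PHT1 proteins carry phosphate into root cells, secreted phosphatases and nucleases free it from organic compounds, and membranes replace part of their phospholipid with galactolipid and sulfolipid.

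Values are normalised reads as deposited, which behave as whole read counts per gene divided by 1 size factor per library, and are listed for libraries 1, 2 and 3 of a group in that order. Total reads on genes ranged from 17931023 to 22752470 per library. A gene was tested if its mean reached 1 normalised read in 1 of the groups, with limma on log2(value + 1), and called at an adjusted p under 0.05 (Benjamini-Hochberg). Differences are P deficiency minus control on that log2 scale, where the added 1 shrinks differences of genes with few reads. Of 32576 tested genes, 1166 were higher under P deficiency (3.58%) and 881 lower (2.70%), together 6.28%, and 1040 of the called genes differed by at least 1 on the log2 scale (3.19%). The groups did not overlap for 27.8% of tested genes. In bulk root RNA, fewer cells of a type and less RNA per cell cannot be told apart.

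The first principal component held 38.0% of the variance and separated the groups, and the second, with 25.3%, set P-deficient library 3 apart from the other 5 libraries. Pearson correlations of log2 values were 0.982 between P-deficient libraries 1 and 2 and 0.966 between library 3 and either of them, against 0.977 to 0.982 among the controls. Without P-deficient library 3, limma called 3384 of 32628 genes, 10.4%, with 2065 higher (6.33%) and 1319 lower (4.04%), and without any 1 of the other 5 libraries it called 696 to 1202. Summed normalised reads of 4 root genes (LSI1, LSI2, RCc3 and SHR1) were 149796, 140305 and 82379 under P deficiency and 130772, 118481 and 121494 in control (two-sided exact permutation test, p = 1.00, where 3 against 3 cannot go below 0.10). Sums over 44 photosynthesis genes, markers of shoot tissue, were 30621, 22049 and 30126 under P deficiency and 27701, 44004 and 73743 in control (exact permutation test, p = 0.30), with control library 3 the highest.

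**Figure D1:**
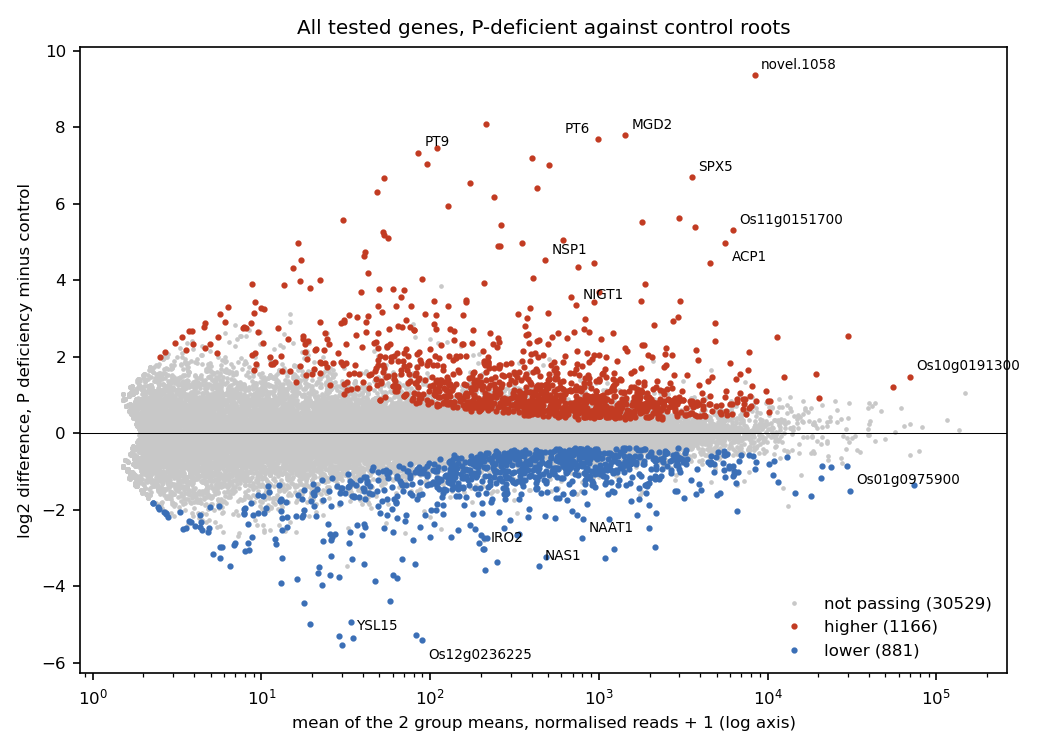
Log2 difference (P deficiency minus control, vertical axis) against mean normalised reads + 1 (horizontal log axis) for all 32576 tested genes, with 1166 called higher in red, 881 called lower in blue and the rest in grey. An unannotated locus on chromosome 3 lies at the top at 9.36, and YSL15 and Os12g0236225 near the bottom at -5.26 and -5.41.

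The largest rise belonged to an unannotated locus on chromosome 3, 2607729 to 2609646 in the deposited coordinates, between Os03g0146600 and Os03g0146900. No source used here names their rice build. The locus held 17437, 14901 and 18082 normalised reads under P deficiency and 22.1, 31.5 and 21.1 in control, a difference of 9.36 ± 0.16 (SE), adjusted p = 5.8e-07. The 3 libraries of each group lay close together and far from those of the other group. It was chosen after its values were seen. Rice IPS1, a non-coding RNA known as a decoy for miR399, was matched to no row by its locus number, and whether this locus holds it was not tested.

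Among SPX domain genes, 9 of 14 tested were higher, none was lower and 5 did not pass, with a median difference of 2.29 against 0.00 over all tested genes. This list includes the PHO1 and SPX-MFS genes described below. SPX1 and SPX2, which hold PHR2 inactive while phosphate is plentiful, rose by 3.70 ± 0.12 (SE) and 3.47 ± 0.12. SPX2 stood at 3767, 3139 and 2824 normalised reads under P deficiency and at 288, 281 and 303 in control, with all P-deficient libraries above all controls. SPX5 rose by 6.70 ± 0.19 (SE). SPX6 was nearly silent in control, with 1 library above 0, and held 188, 156 and 221 under P deficiency. Its reads gave a ratio of P deficiency to control of 295 (95% counting interval 81.2 to 2438). Counting intervals, here and below, pool the reads of each group and leave out the spread between libraries. SPX3, at 37.1, 23.8 and 23.4 under P deficiency, had reads in 1 control library, as SPX6 did, and its ratio was 43 (95% counting interval 11.5 to 361). SPX4, whose protein also binds PHR2, held 469.7, 452 and 384 under P deficiency and 446, 396 and 479 in control, and the groups overlapped.

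Differences of the PHR factors were smaller than those of SPX1 and SPX2. PHR2 had a difference of -0.22 ± 0.09 (SE), adjusted p = 0.191, and PHR1 one of -0.24 ± 0.11 (SE), adjusted p = 0.266. PHR3 fell by 0.60 ± 0.09 (SE) on the log2 scale, adjusted p = 0.012, from 733, 733 and 774 to 467, 486 and 525. The related MYB gene PHR4 rose, from 545, 468 and 597 to 1374, 1274 and 1469.7, a difference of 1.36 ± 0.12 (SE), adjusted p = 0.0012. NLA1 encodes a ubiquitin ligase that directs PHT1 proteins to degradation, and it fell from 299, 353 and 467 to 153, 175 and 241 (-0.97 ± 0.22 (SE), adjusted p = 0.045). PHO2, a ubiquitin conjugase that acts on the same transport path, had 3668, 3629 and 4382 under P deficiency and 4811, 4336 and 6890.1 in control, and did not pass (-0.43 ± 0.18 (SE), adjusted p = 0.228). PHF1, which helps PHT1 proteins leave the endoplasmic reticulum, rose by 0.96 ± 0.17 (SE), from 2063, 1923 and 2018 to 4131, 4756 and 3000.2. PTF1, a helix-loop-helix gene named for phosphate starvation, did not pass (-0.03, adjusted p = 0.908). The calls of PHR3, NLA1 and PHF1 ended when any 1 of control libraries 1 and 2 or P-deficient libraries 1 and 2 was left out, for NLA1 and PHF1 also without control library 3, with adjusted p of 0.051 to 0.059, 0.079 to 0.14 and 0.053 to 0.083.

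Of the 13 PHT1 phosphate transporters, 11 were tested, 7 were higher and none was lower, with a median difference of 2.07. The call held for 7 members in each of the 6 fits that left out 1 library. PT6, a high-affinity carrier, stood at 1641, 1797 and 2459.8 under P deficiency and 7.73, 5.56 and 13.2 in control, with library 3 the highest. PT9 and PT10 lie close together on chromosome 6, and no read of either was counted in the controls. They are close paralogs, so how their reads were split between them is uncertain. PT9 held 204, 198 and 104 normalised reads under P deficiency, at least 172-fold above the limit that 3 reads over the control group would set. PT10 held 117, 127 and 68.3, at least 107-fold above that limit. In both genes P-deficient library 3 was the lowest.

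PT3, PT4, PT8 and PT2 rose as well. PT3 had 559, 596 and 249.6 against 9.94, 2.78 and 4.41 in control (6.17 ± 0.48 (SE), adjusted p = 6.8e-04), again with library 3 the lowest of its group. Its locus overlaps Os10g0444566, which went from 4.42, 1.85 and 1.76 to 426, 373 and 218, and reads of this pair may be shared between them, so both values are uncertain. PT8, a high-affinity carrier of root and shoot, rose from 832, 863 and 1149 to 4393, 3573 and 3894 (2.07 ± 0.15 (SE), adjusted p = 5.0e-04). PT4 rose by 2.80 ± 0.16 (SE) and the low-affinity PT2 by 1.78 ± 0.20. PT1, which is expressed constitutively in rice, held 5227, 3769.6 and 4318 under P deficiency and 3920.2, 4166 and 5405 in control, and its groups overlapped. PT5, PT12 and PT13 also did not pass, with differences of 1.51 for PT5 and 0.62 for PT13. PT12 had 0, 2.98 and 0 under P deficiency and 9.94, 5.56 and 3.52 in control. PT7 and PT11, the latter known from mycorrhizal roots, were not analysed here.

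PHO1 proteins export phosphate from cells, and SPX-MFS proteins move it across the vacuolar membrane. Of the 6 genes, 3 rose and none fell. The 3 that rose carry the SPX domain and are also among the 9 higher of 14 SPX domain genes given above. PHO1;1 held 140.3, 143 and 202 under P deficiency and 28.7, 26.9 and 51.1 in control (2.19 ± 0.29 (SE), adjusted p = 0.0064), although its locus overlaps the SPX gene Os01g0110050. PHO1;3 held 54.5, 77.5 and 107 against 9.94, 20.4 and 13.2 (2.38 ± 0.36 (SE), adjusted p = 0.011). PHO1;2, the gene of this family known to load phosphate into the xylem in rice, stood at 6893, 6208 and 10221 against 4099, 3421 and 5442. Its groups did not overlap, but it did not pass (0.84 ± 0.23 (SE), adjusted p = 0.084). SPX-MFS2 rose from 221, 216 and 381 to 654, 636 and 609.6, and its call ended without any 1 of control libraries 1 and 2 or P-deficient libraries 1 and 2 (adjusted p 0.063 to 0.077). SPX-MFS1 and SPX-MFS3 did not pass, and SPX-MFS3 had a difference of -0.48 ± 0.18 (SE), adjusted p = 0.174.

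**Figure D2:**
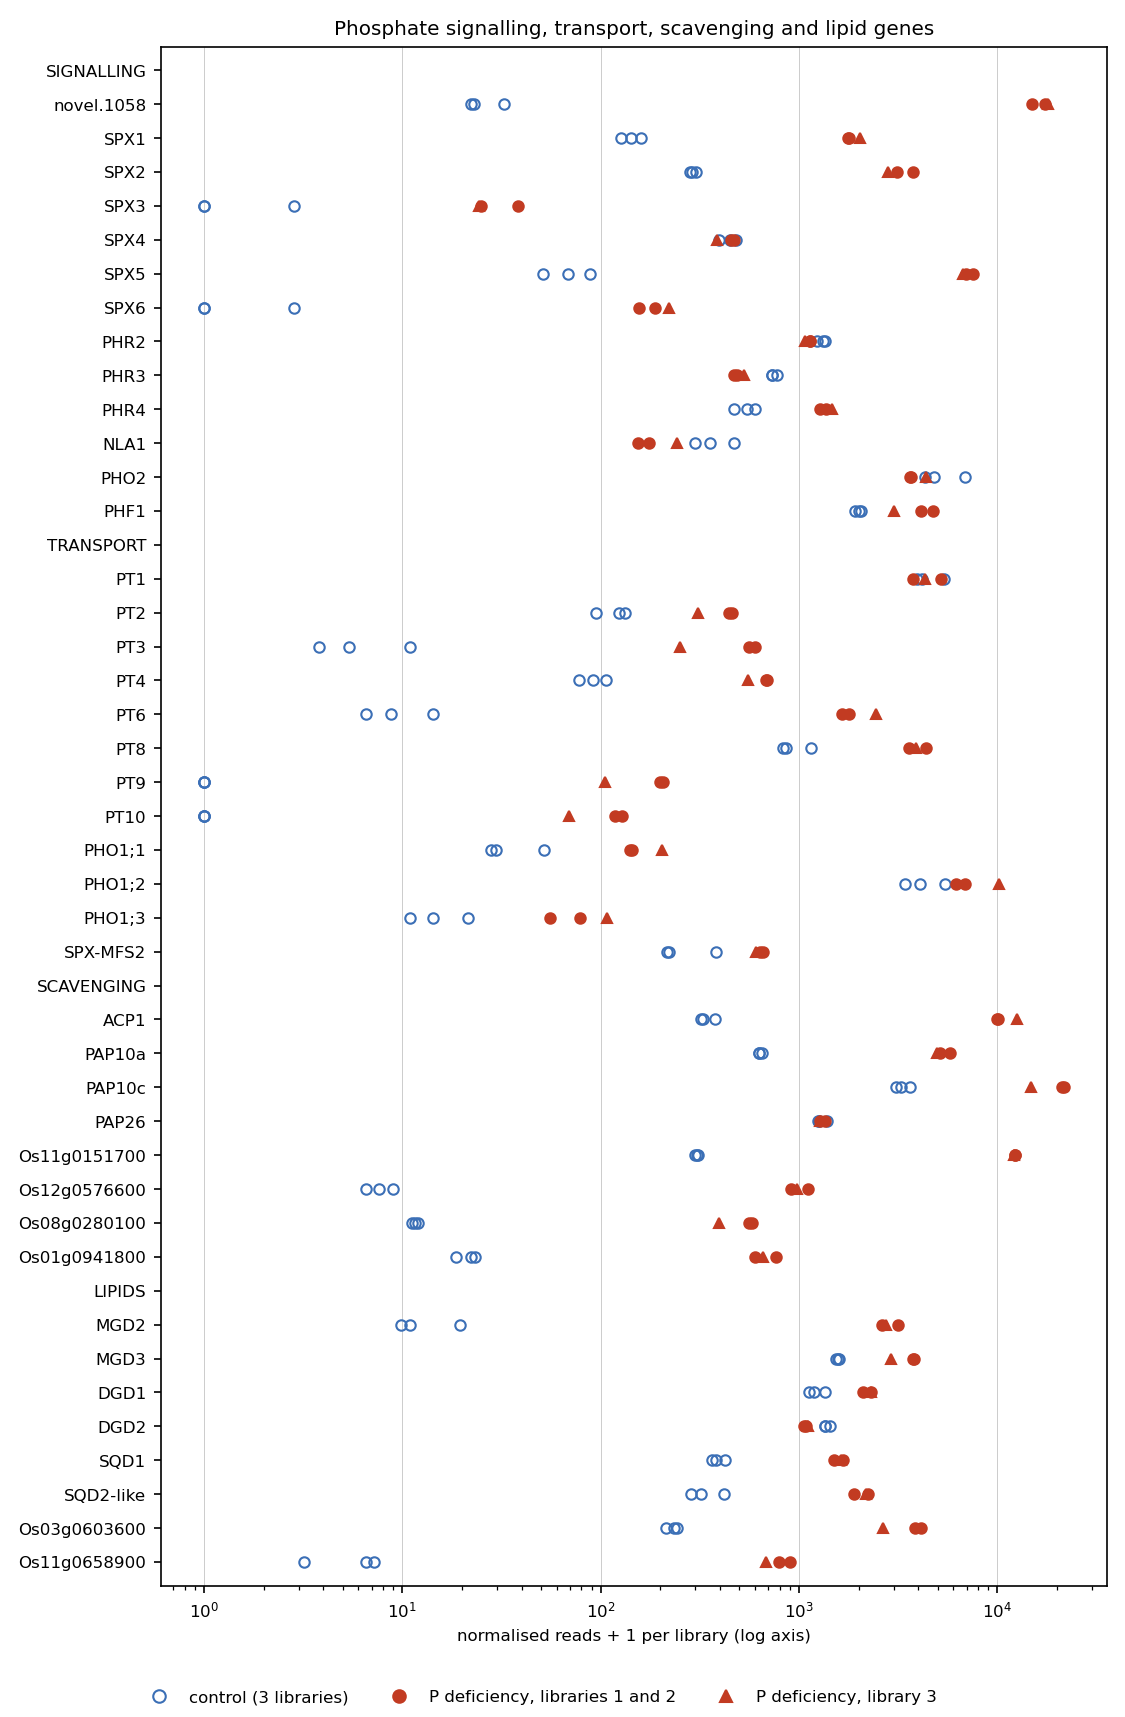
Normalised reads + 1 per library (log axis) of genes for phosphate signalling, transport, scavenging and membrane lipids, with control libraries as open blue circles, P-deficient libraries 1 and 2 as filled red circles and library 3 as a triangle. PT9 and PT10 sit at 0 reads in all 3 controls, and SPX4, PT1 and PAP26 overlap between groups.

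Purple acid phosphatases cut phosphate from organic esters, many of them outside the cell. Of 24 tested, 10 were higher, none was lower and 14 did not pass, with a median difference of 0.79. Os12g0576600 went from 6.63, 5.56 and 7.93 to 1109.8, 916 and 978 (7.03 ± 0.19 (SE), adjusted p = 4.3e-06). Os08g0280100 went from 11, 10.2 and 10.6 to 582, 559 and 395 and Os09g0506000 from 50.8, 49.1 and 33.5 to 808, 918 and 565. In these 2 genes library 3 was the lowest of the P-deficient group and still more than 10 times its highest control. PAP10a, a secreted root phosphatase, rose from 631, 626 and 649 to 5763, 5137 and 4966 (3.05 ± 0.09 (SE), adjusted p = 8.3e-06). PAP10c rose from 3098, 3279 and 3637 to 21706, 21268 and 14802 (2.51 ± 0.17 (SE), adjusted p = 4.1e-04). PAP26, a vacuolar and secreted phosphatase in Arabidopsis, held 1358, 1274 and 1273 under P deficiency and 1389, 1267 and 1252 in control, an overlap of the groups.

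Other phosphatases showed narrower sets of calls, beside 3.58% higher and 2.70% lower over all tested genes. Calcineurin-like phosphoesterases outside the purple acid type had 5 higher and 1 lower of 38. Os10g0116800 rose from 12.2, 4.63 and 11.5 to 780.5, 679 and 1091, Os01g0941800 from 17.7, 22.2 and 21.1 to 761, 602 and 659 and Os07g0106000 from 81.8, 83.4 and 48.5 to 1444, 1391 and 1459. Among HAD-like, histidine and other acid phosphatases, 6 were higher and 4 lower of 40. ACP1, a HAD-type phosphatase, had 10079, 10004 and 12629 under P deficiency and 328, 319 and 376 in control (4.99 ± 0.13 (SE), adjusted p = 4.3e-06). The histidine phosphatase genes Os06g0109000 and Os01g0777700 rose by 3.32 and 2.65.

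Nucleic acids are the largest organic store of phosphorus in most plant cells. Secreted ribonucleases of the T2 family had 3 higher and none lower of 8, beside 3.58% higher and 2.70% lower over all tested genes. Os08g0434100 rose from 389, 349 and 371 to 1425, 1155 and 1783 (1.95 ± 0.16 (SE), adjusted p = 8.4e-04). Os01g0897200 and Os01g0897300, which stand side by side on chromosome 1, rose by 0.68 and 0.59, and both calls ended in 4 or 5 of the 6 fits without 1 library (adjusted p 0.05 to 0.068 and 0.065 to 0.12). Only P-deficient library 3 (and, for Os01g0897200, control library 1) could be left out without that loss. The S1/P1 nuclease Os01g0128200 went from 17.7, 16.7 and 12.3 to 121, 119 and 140.2 (2.96 ± 0.23 (SE), adjusted p = 6.7e-04) and was the single call among 13 nucleases and apyrases. That is 7.69% of the list, close to the 6.28% called over all tested genes.

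Galactolipid and sulfolipid synthesis rose in 5 of 6 genes, with none lower and a median difference of 1.59, and that count was 5 in each fit without 1 library. MGD2 and MGD3 make monogalactosyldiacylglycerol. MGD2 stood at 3174, 2612 and 2740.3 under P deficiency and 9.94, 18.5 and 8.81 in control, a difference of 7.79 ± 0.26 (SE), adjusted p = 1.1e-05. The short non-coding RNA EPlOSAG00000008783 lies within the MGD2 locus and also rose, from 0, 0.927 and 0 to 64.9, 60.6 and 49.6, so the reads of this pair cannot be told apart without strand. MGD3 rose by 1.15 ± 0.12 (SE), from 1542, 1567 and 1589 to 3805, 3775 and 2914. DGD1 adds the second galactose and rose by 0.88 ± 0.10 (SE). Its relative DGD2 had 1087, 1056 and 1104 under P deficiency and 1437, 1347 and 1359.5 in control, lower in each library, and did not pass (-0.35 ± 0.08 (SE), adjusted p = 0.051).

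Sulfolipid genes moved the same way. SQD1 makes the sulfoquinovose head group and rose from 364, 381 and 424 to 1673, 1499 and 1633 (2.04 ± 0.10 (SE), adjusted p = 6.4e-05). The glycosyltransferase gene Os07g0100300, listed here as SQD2-like, rose from 319, 284 and 419 to 2217, 1893 and 2175 (2.63 ± 0.15 (SE), adjusted p = 1.6e-04). A further glycosyltransferase gene with family 4 and group 1 domains, Os01g0142300, was named after its values were seen. It held 9298, 9426 and 7351 under P deficiency and 412, 381 and 386 in control (4.46 ± 0.12 (SE), adjusted p = 4.3e-06).

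Genes of phospholipid breakdown were called higher as well. Glycerophosphodiester phosphodiesterases, which split the head group from deacylated phospholipids, were higher in 5 of 13 and lower in none, with 3 higher without control library 1, control library 2 or P-deficient library 2. Os03g0603600 rose from 243, 234 and 212 to 4112, 3845 and 2666 (3.92 ± 0.17 (SE), adjusted p = 3.2e-05). Os02g0514500 rose from 24.3, 25 and 31.7 to 311, 278 and 306, and the overlapping locus Os02g0514326 from 467, 474 and 545 to 6063, 5665 and 4824. Os04g0394100 was low in control and uneven there, at 1.1, 1.85 and 11.5, and its call ended without control library 1, control library 2 or P-deficient library 2 (adjusted p 0.051 to 0.063). Of 22 phospholipases C and D, 5 rose and none fell. Os03g0852800, with a phosphoesterase domain of the non-specific phospholipase C type, rose from 147, 123 and 138 to 717, 677 and 783 (2.41 ± 0.12 (SE), adjusted p = 6.4e-05), and the phospholipase D gene Os01g0310100 from 1008, 835 and 897 to 2013, 1884 and 1848. In Os11g0593000 library 3 was lower (4469, 4776 and 2538) but above the controls (1104, 1156 and 1003).

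Lipases of the patatin, class 3 and GDSL types had 12 higher and 8 lower of 125, and 20 and 10 without P-deficient library 3. The shares called over all tested genes were 6.28% and, without that library, 10.4%. The class 3 lipase gene Os11g0658900 went from 2.21, 5.56 and 6.17 to 903, 796 and 683 (7.21 ± 0.33 (SE), adjusted p = 4.4e-05). Os07g0668700 and Os09g0569300, of the same class, rose by 2.62 and 2.53. The GDSL gene Os10g0463200 fell from 76.2, 45.4 and 57.3 to 2.32, 2.98 and 15.9, and its call ended in 5 of the 6 fits without 1 library (adjusted p 0.08 to 0.11). It held without P-deficient library 3, the highest of its group. Acyl-CoA dehydrogenases and oxidases, which begin fatty acid breakdown, had 4 lower, none higher and 10 not passing of 14. Os05g0125500 and Os06g0347100 fell by 0.73 and 0.49, and both calls ended without control library 1, 2 or 3 or P-deficient library 2, the second also without P-deficient library 1 (adjusted p 0.055 to 0.11 and 0.08 to 0.11).

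Plants short of phosphate can bypass steps of glycolysis that need it, and organic acids released by roots free phosphate bound in soil. In these roots glycolysis enzymes had 2 higher and 2 lower of 53, with a median of 0.14. That is 7.55% called, close to the 6.28% over all tested genes. The enolase gene Os03g0248600 rose from 5308, 5501 and 4978 to 11369.7, 11273 and 8721 (0.98 ± 0.14 (SE), adjusted p = 0.0082), and its adjusted p was 0.052 without control library 1. Without P-deficient library 3 the list had 12 higher and 2 lower, beside 6.33% higher and 4.04% lower over all tested genes. Phosphofructokinases and pyrophosphatases had 2 higher and 1 lower of 29, and 6 and 1 without that library. Os02g0704900, from the latter, rose from 34.3, 36.2 and 30 to 248, 209 and 221 (2.72 ± 0.17 (SE), adjusted p = 2.3e-04), and Os05g0114000 of the same list from 1986, 2933 and 2912 to 11929.8, 9710.2 and 6624. Of 7 phosphoenolpyruvate carboxylases, which feed organic acid synthesis, 2 passed. Os09g0315700 was higher by 1.26 and Os02g0244700 by 0.44, and neither call held without any 1 of control libraries 1 to 3 or P-deficient libraries 1 and 2 (adjusted p 0.058 to 0.11 and 0.075 to 0.13).

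Organic acid channels and MATE carriers had 7 higher and 5 lower of 64 (10 and 8 without P-deficient library 3), with a median of 0.06. Over all tested genes 6.28% were called, and 10.4% without that library. The MATE gene Os12g0615700 rose from 24.3, 25 and 24.7 to 132, 120.2 and 102 (2.21 ± 0.20 (SE), adjusted p = 0.0012). Os04g0417000, of the aluminium-activated malate transporter family, went from 4.42, 8.34 and 8.81 to 55.7, 37.8 and 29, a call that ended without control library 1 or 2 or P-deficient library 1 or 2 (adjusted p 0.052 to 0.063). Sucrose and starch enzymes had 5 higher and 4 lower of 55, and 8 and 7 without that library. Os11g0236100, with a sucrose phosphatase and a glycosyltransferase domain, and Os01g0376700, with sucrose phosphatase domains, rose, the first from 70.7, 60.3 and 76.7 to 560.1, 538 and 1049.9 with library 3 highest, the second from 246, 219 and 246 to 1578, 1390.0 and 1537. Their differences were 3.29 ± 0.26 (SE) and 2.66 ± 0.10. Of 13 SWEET sugar exporters 4 rose and 1 fell, against 4 and 2 without that library. Os12g0476200 rose from 70.7, 77.9 and 43.2 to 306, 259 and 209 (2.02 ± 0.26 (SE), adjusted p = 0.0054).

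**Figure D3:**
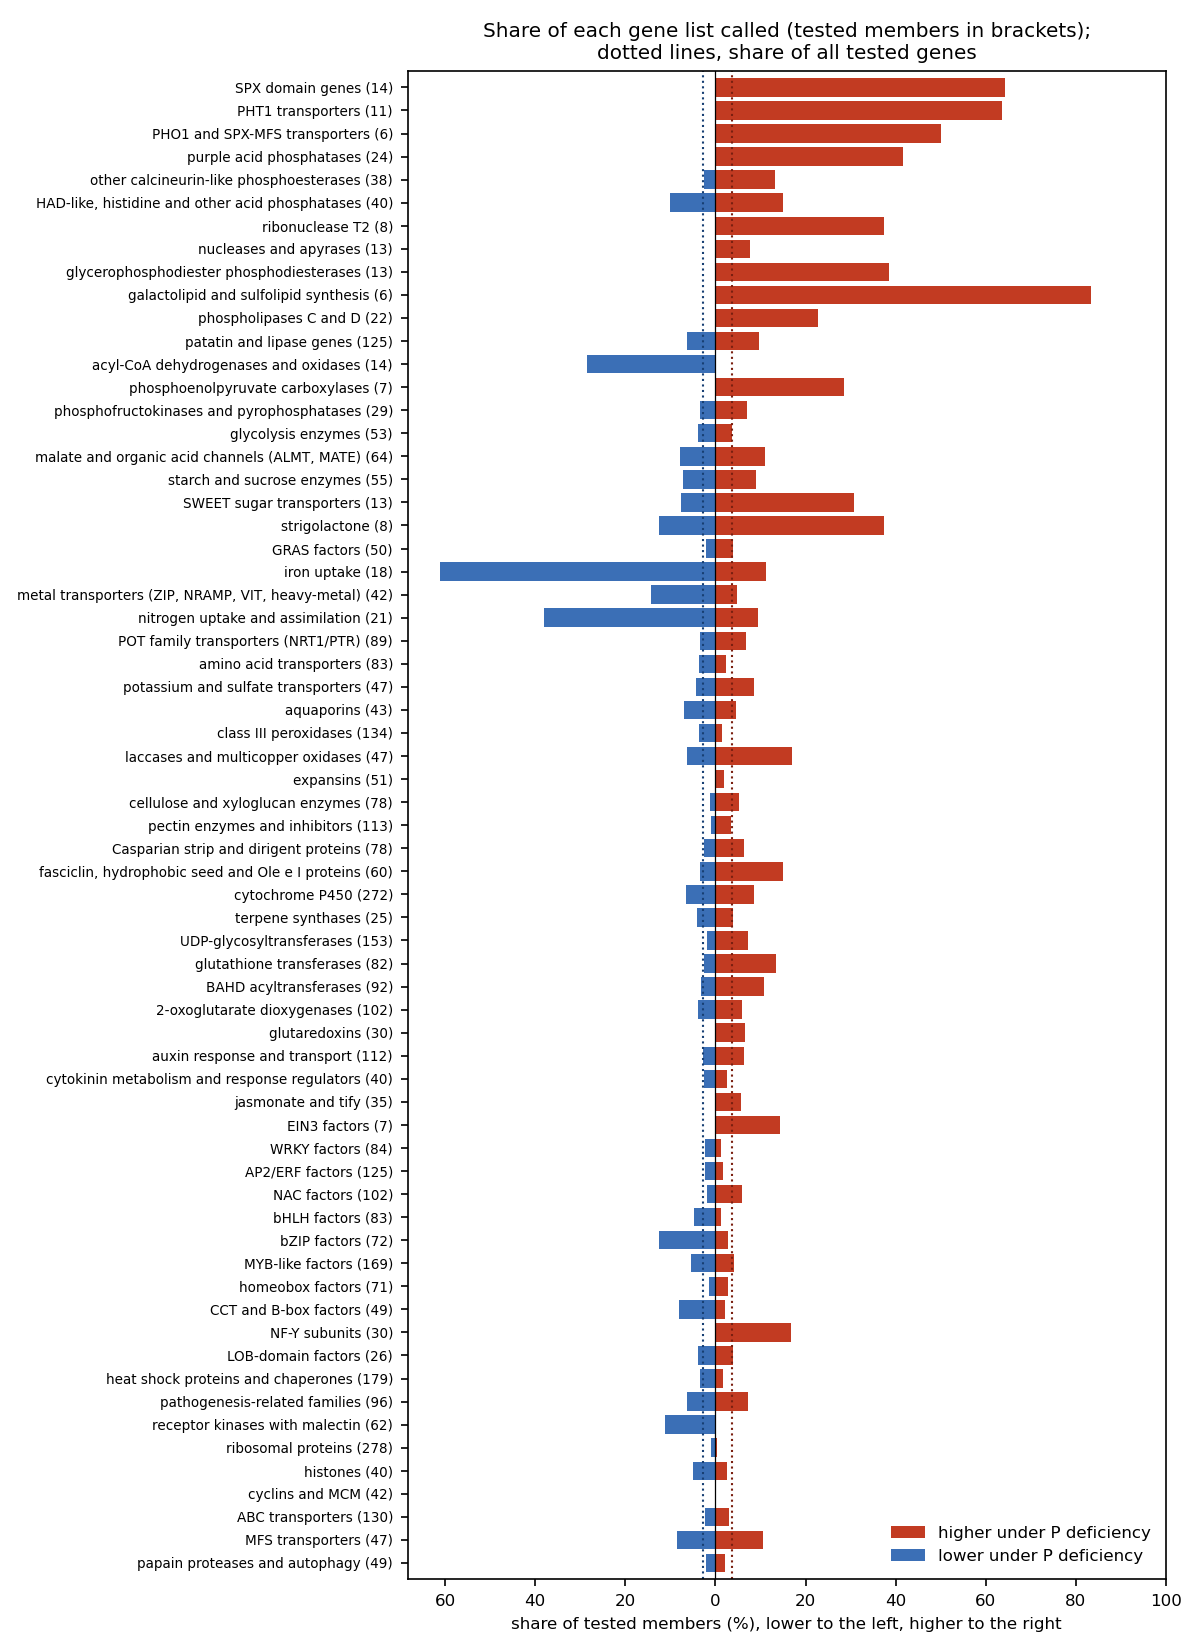
Share of the tested members called for gene lists other than the markers, the phosphate regulators and the 4 secreted phosphatases listed by locus, with calls higher under P deficiency in red to the right, lower in blue to the left, list size in brackets and dotted lines at the shares over all tested genes (3.58% higher, 2.70% lower). Galactolipid and sulfolipid synthesis, SPX and PHT1 genes reach furthest to the right among the lists drawn, at 83.3%, 64.3% and 63.6%, and iron uptake furthest to the left, at 61.1%. The SPX list includes PHO1 and SPX-MFS genes, which are also drawn as a list of their own.

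Genes for strigolactones, root hormones that restrain branching and attract mycorrhizal fungi, were also called. NSP1 and NSP2 are GRAS factors required for strigolactone synthesis. NSP1 rose from 35.4, 36.2 and 44.1 to 1024, 999.5 and 729 (4.53 ± 0.17 (SE), adjusted p = 2.1e-05). NSP2 stood at 252, 217 and 43 under P deficiency and 17.7, 13 and 13.2 in control, with library 3 far below libraries 1 and 2. It passed with all libraries (3.12 ± 0.63 (SE), adjusted p = 0.031) and reached 3.92 without P-deficient library 3, but its call ended without any 1 of the other 5 libraries (adjusted p 0.097 to 0.11). D10, the carotenoid cleavage dioxygenase CCD8, rose from 22.1, 19.5 and 19.4 to 167, 135 and 113 (2.69 ± 0.22 (SE), adjusted p = 8.4e-04). D17, the partner enzyme CCD7, had 139, 161 and 104 against 70.7, 90.8 and 76.7, groups that did not overlap, and did not pass (0.74 ± 0.21 (SE), adjusted p = 0.088).

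CYP711A2, a cytochrome P450 of the same path, held 38.3, 43.7 and 6.54 under P deficiency and 14.4, 21.3 and 19.4 in control. Here too library 3 was the lowest, and the groups overlapped. The strigolactone receptor D14 fell by 0.86 ± 0.16 (SE) on the log2 scale, adjusted p = 0.026, a call lost without any 1 of control libraries 1 to 3 or P-deficient libraries 1 and 2 (adjusted p 0.065 to 0.11). Neither the F-box partner D3 (-0.24) nor the repressor D53 (-0.33) passed. Over the 50 tested GRAS factors, 2 were higher and 1 lower, and without P-deficient library 3 these counts were 3 and 2. The shares called over all tested genes were 6.28% and, without that library, 10.4%.

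Among the lists counted here, iron acquisition had the largest share of falls. Rice roots take up iron by secreting deoxymugineic acid, made from nicotianamine, and reimporting the iron complex, and also take up ferrous iron directly. Of 18 tested genes, 11 were lower, 2 higher and 5 did not pass, with a median difference of -1.42. YSL15, which imports the iron complex, stood at 2.32, 0.994 and 8.41 under P deficiency and 209.9, 169 and 96.9 in control (-5.26 ± 0.59 (SE), adjusted p = 0.0034). NAS1 and NAS2 make nicotianamine. NAS1 held 20.9, 75.5 and 174 against 1211, 602 and 548 in control, and NAS2 31.3, 113 and 168 against 1366, 602 and 612. Both genes differed several-fold among the P-deficient libraries, with library 1 lowest and library 3 highest, yet did not overlap with control. NAS1 and NAS2 are adjacent paralogs, so how their reads were split is uncertain.

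NAAT1 and DMAS1 carry nicotianamine on to deoxymugineic acid. NAAT1 fell from 1599.9, 1159.6 and 1384 to 170.5, 181 and 282 (-2.73 ± 0.21 (SE), adjusted p = 6.8e-04), and DMAS1 from 201, 155 and 169 to 76.5, 58.6 and 103 (-1.16 ± 0.23 (SE), adjusted p = 0.028). NAS3, by contrast, rose from 649, 745 and 783 to 1199, 1356 and 1380.0 (0.85 ± 0.11 (SE), adjusted p = 0.0056). IMA1, a peptide that promotes iron uptake, fell by 2.70 ± 0.35 (SE) on the log2 scale, adjusted p = 0.0060. Os01g0952800, which the deposited table names IRO2 after an iron-regulated factor, fell from 401, 337 and 367 to 30.2, 44.7 and 66.4 (-3.01 ± 0.27 (SE), adjusted p = 0.0013). That locus overlaps Os01g0952900, and the only domain deposited for it is one whose role is unknown. RefSeq lists OsIRO2 as a synonym at the IRO3 locus, so which gene this row holds is uncertain. IRO3, a repressor of the iron response, fell from 722, 684 and 604 to 209, 191 and 297 (-1.55 ± 0.18 (SE), adjusted p = 0.0037).

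For direct uptake, IRT1 fell from 187, 224 and 202 to 112, 74.5 and 66.4, at a locus that overlaps Os03g0667400 and EPlOSAG00000044278. NRAMP1 fell from 492, 313 and 226 to 34.8, 34.8 and 70.1 (-2.87 ± 0.36 (SE), adjusted p = 0.0054), and its locus overlaps Os07g0258501. IRT2 had 3.48, 0 and 0 against 7.73, 21.3 and 12.3 and passed narrowly (adjusted p = 0.046). VIT1.2, a carrier of iron into the vacuole, rose from 199, 185 and 208 to 309.6, 369.6 and 376 (0.83 ± 0.12 (SE), adjusted p = 0.011), and Os04g0538400 of the same family rose from 75.1, 156 and 268 to 647, 711 and 506. The ferritins FER1 and FER2, the ligases HRZ1 and HRZ2 that hold back the iron response, and YSL2 did not pass, with differences of 0.25, 0.40, -0.15, -0.28 and 0.62. Several calls ended when 1 library was left out, and the number lower was 6 without control library 1, 2 or 3 or P-deficient library 2 and 10 without P-deficient library 1 or 3. For NAS1, NAS2 and IRT1 the calls ended without control library 1, 2 or 3 or P-deficient library 2 (adjusted p 0.079 to 0.12, 0.063 to 0.098 and 0.056 to 0.078). DMAS1 did not pass without control library 1, 2 or 3 or P-deficient library 1 or 2 (0.075 to 0.12), nor IRT2 without control library 1, 2 or 3 or P-deficient library 2 or 3 (0.065 to 0.16). VIT1.2 did not pass without control library 1 or 2 or P-deficient library 2 (0.051 to 0.056), nor Os04g0538400 without control library 2 or P-deficient library 1 or 2 (0.1 to 0.11).

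Nitrogen genes had 8 lower, 2 higher and 11 not passing of 21, with a median of -0.61. NIGT1 encodes a repressor of nitrate uptake genes, and it rose from 120.4, 121 and 152 to 1438, 1309.5 and 1272 (3.35 ± 0.13 (SE), adjusted p = 2.0e-05). The nitrate transporter NRT2.4 rose from 16.6, 16.7 and 29.1 to 66.1, 50.7 and 110.3. NAR2.1, the partner protein of NRT2 transporters, fell from 2156, 1890.1 and 2437 to 960.2, 1135 and 605 (-1.30 ± 0.23 (SE), adjusted p = 0.018). NRT2.2 fell from 114, 98.3 and 117 to 58, 41.7 and 33.7, and NRT2.1, at 14.4, 11.1 and 10.6 in control and 4.64, 3.97 and 2.8 under P deficiency, did not pass (-1.45 ± 0.36 (SE), adjusted p = 0.060). The NRT2.1 and NRT2.2 coding sequences are nearly identical in rice, so the split of reads between them is uncertain. NRT1.1B, a transporter and nitrate sensor, fell from 5319, 3735 and 5370.2 to 1462, 2187 and 1002 (-1.68 ± 0.28 (SE), adjusted p = 0.015). NRT2.3 (-0.61) and NRT1.1A (0.02) did not pass.

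Ammonium and assimilation genes gave the other falls. AMT1;3 had 6.63, 1.85 and 7.05 in control and no read under P deficiency, at least 5.02-fold lower with 3 reads over the group as the limit. AMT1;2 fell from 162, 106 and 231 to 59.1, 69.6 and 45.8, while AMT1;1 (-0.56) did not pass. The nitrate reductase gene NIA1 fell from 3277, 3345 and 6452 to 1573, 1496 and 1327, at a locus that overlaps Os08g0468200. NIA2 fell too and held 2438, 2312 and 2827 under P deficiency and 6267, 5119 and 12556 in control, with control library 3, the library highest in photosynthesis genes, the highest for both genes. Without that library NIA1 and NIA2 were lower by 1.18 and 1.17 (limma, adjusted p of 0.0057 and 0.013). Control library 2, which stayed in that fit, also held more summed photosynthesis reads (44004) than any P-deficient library. The part of shoot tissue in these falls was not tested. NADH-GOGAT2, a glutamate synthase, fell from 23.2, 24.1 and 27.3 to 2.32, 5.96 and 7.48. The glutamine synthetase gene GS1;2 stood at 8810.2, 9071 and 3445 against 16954, 15787 and 19522, groups that did not overlap, and did not pass with library 3 included (-1.42 ± 0.36 (SE), adjusted p = 0.064). It was -0.96 without that library, with an adjusted p of 0.0051. GS1;1, NIR, ASN1, ASN2, NLP1 and NLP4 did not pass, with differences of 0.30, -0.29, -0.40, 0.20, 0.09 and -0.33. NADH-GOGAT1 was not analysed here.

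Calls in this list were sensitive to single libraries. The number lower fell from 8 to 1 without control library 1 or P-deficient library 1, to 2 without control library 3 or P-deficient library 2 and to 5 without control library 2. NRT2.4 did not pass without control library 1 or 2 or P-deficient library 1 or 2 (adjusted p 0.051 to 0.12), NRT2.2 without control library 1, 2 or 3 or P-deficient library 2 (0.071 to 0.093), nor NAR2.1 without control library 1, 2 or 3 or P-deficient library 1 (0.058 to 0.081). NRT1.1B did not pass without control library 1 or 3 or P-deficient library 1 (0.063 to 0.078), AMT1;2 without control library 1 or 3 or P-deficient library 1 or 2 (0.073 to 0.13), nor AMT1;3 without control library 1 or 3 or P-deficient library 1, 2 or 3 (0.051 to 0.15). The call of NIA1 ended without P-deficient library 1 or 2 (0.059 in both), of NIA2 without control library 1 or P-deficient library 1 or 2 (0.083 to 0.1) and of NADH-GOGAT2 without control library 1, 2 or 3 or P-deficient library 1 or 2 (0.056 to 0.1). NIGT1 passed in each of the 6.

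**Figure D4:**
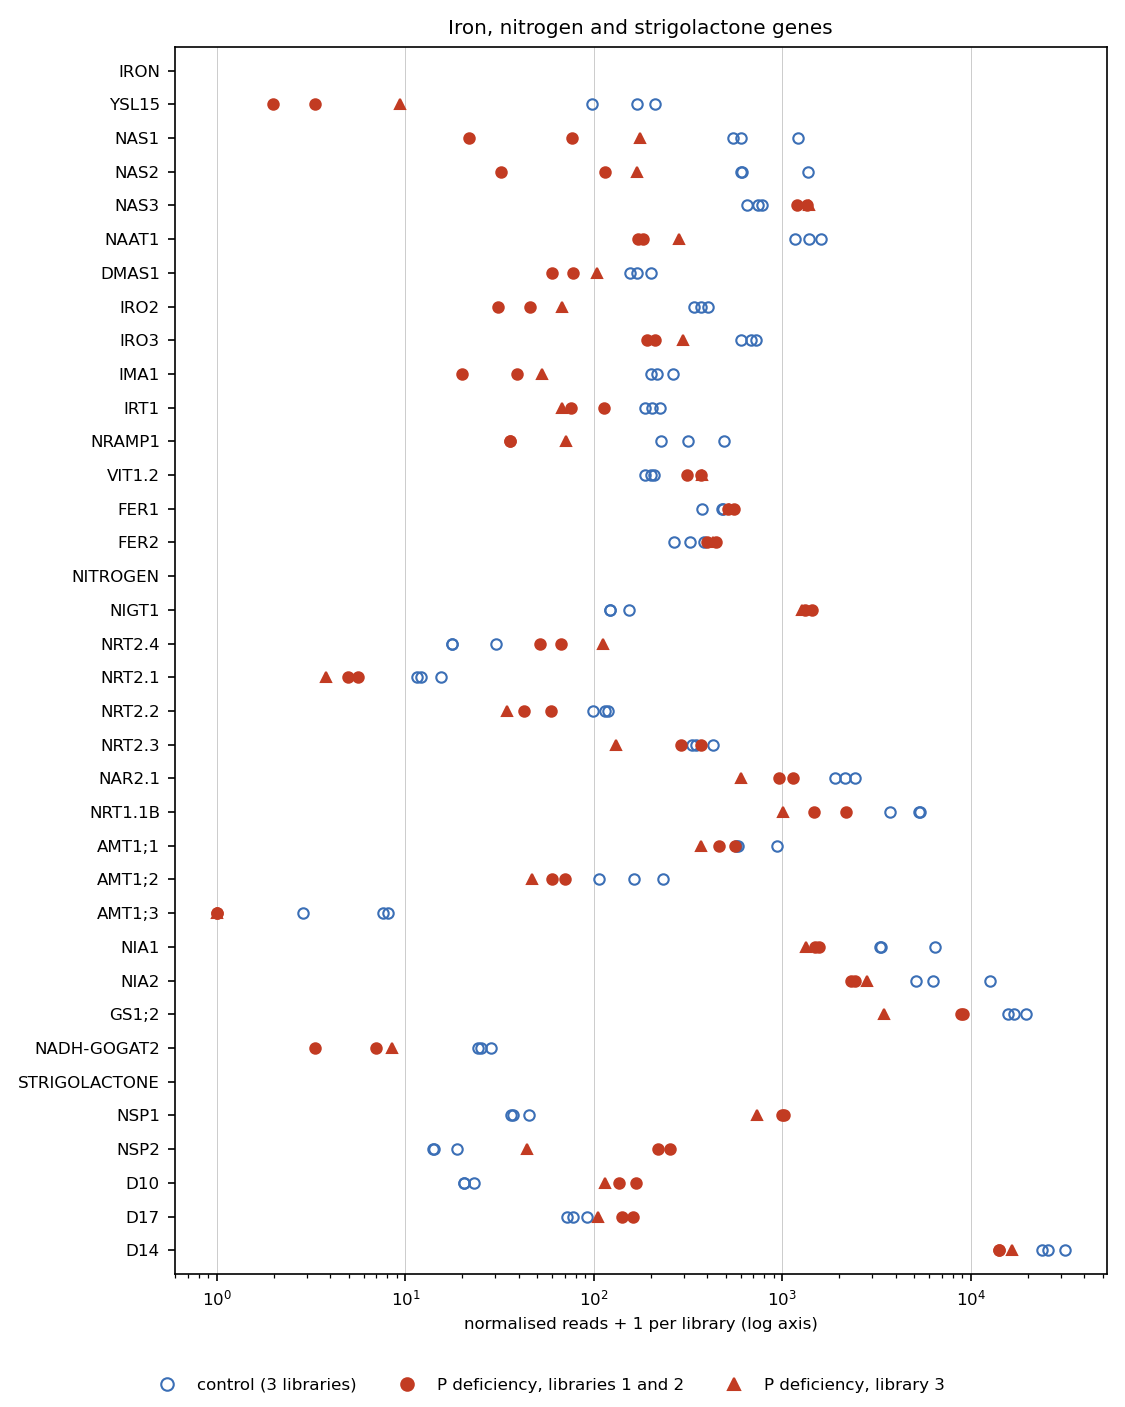
Normalised reads + 1 per library (log axis) of iron, nitrogen and strigolactone genes, with control libraries as open blue circles, P-deficient libraries 1 and 2 as filled red circles and library 3 as a triangle. YSL15, NAAT1 and IMA1 lie to the left of their controls, NIGT1 and NSP1 to the right, and FER1 and FER2 close to them.

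P-deficient and N-deficient roots were set side by side on a joint scale over 9 libraries. limma called 3.78% of 32806 genes between them. N-deficient libraries held 0.926, 3.96 and 0.951 normalised reads of the unannotated locus on chromosome 3 (P minus N 12.66 ± 0.34 (SE), adjusted p = 5.6e-08), 16.7, 12.9 and 8.56 of MGD2 (7.77 ± 0.30 (SE), adjusted p = 3.0e-07) and 260.3, 325 and 232 of ACP1 (5.35 ± 0.14 (SE), adjusted p = 5.6e-08). SPX-MFS2 held 19.4, 32.6 and 5.71 under N deficiency and 667, 653 and 619 under P deficiency (5.28 ± 0.48 (SE), adjusted p = 1.6e-04). NIGT1 stood at 25.9, 37.6 and 29.5 under N deficiency and 1467, 1346 and 1292 under P deficiency, a difference of 5.43 ± 0.16 (SE), adjusted p = 6.1e-08. NAR2.1 stood at 29691, 21350.3 and 31609.8 under N deficiency and 979, 1166 and 614 under P deficiency. In each of these genes the groups lay far apart.

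Of the iron and strigolactone genes compared with N deficiency, YSL15 had 1.85, 0.989 and 0.951 normalised reads under N deficiency, and P minus N was 0.85 ± 0.55 (SE), adjusted p = 0.497. NAS1, with 0, 2.97 and 0 under N deficiency, was higher under P deficiency (limma, adjusted p = 0.0028). IRT1 had 216, 207 and 293 under N deficiency and was lower under P deficiency (-1.48 ± 0.21 (SE), adjusted p = 0.0036). NAAT1 held 129.7, 113 and 80.9 under N deficiency, and the difference was 0.98 ± 0.23 (SE), adjusted p = 0.043. In NSP1, with 550.1, 583 and 653 under N deficiency, the difference missed the threshold (0.64 ± 0.16 (SE), adjusted p = 0.056), though edgeR gave it an adjusted p of 0.033. D10 had 82.4, 69.2 and 70.4 and was higher under P deficiency (0.91 ± 0.20 (SE), adjusted p = 0.033).

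Other carrier families had calls in both directions, beside 3.58% higher and 2.70% lower over all tested genes. The POT family (NRT1/PTR) had 6 higher and 3 lower of 89, amino acid transporters 2 and 3 of 83, potassium and sulfate transporters 4 and 2 of 47, and ABC transporters 4 and 3 of 130. Without P-deficient library 3 these counts were 10 and 4, 6 and 5, 7 and 3, and 9 and 4. Over all tested genes 6.33% were then higher and 4.04% lower. MFS carriers had 5 higher and 4 lower of 47 (8 and 8 without it). Os08g0409900 of that family went from 8.84, 19.5 and 22 to 554, 547 and 401 (4.90 ± 0.33 (SE), adjusted p = 4.1e-04). Aquaporins, which pass water and small solutes, had 2 higher and 3 lower of 43 (6 and 6 without it). Os01g0975900 fell from 64482, 43279 and 30068 to 13413, 15127 and 18428, and Os08g0151900 rose from 2.21, 7.42 and 8.81 to 64.9, 71.5 and 138 (3.77 ± 0.50 (SE), adjusted p = 0.0068). The call of Os01g0975900 ended without control library 1 or 2 or P-deficient library 1 or 2 (adjusted p 0.077 to 0.11).

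Wall genes were called unevenly, beside 3.58% higher and 2.70% lower over all tested genes. Multicopper oxidases, a family that holds laccases and the LPR proteins linked to phosphate sensing in Arabidopsis, had 8 higher and 3 lower of 47. LPR3 (Os01g0127000) rose from 68.5, 51.9 and 67 to 379, 438 and 351 (2.63 ± 0.16 (SE), adjusted p = 2.6e-04), and its neighbour Os01g0127200 from 139, 160.4 and 87.2 to 1014, 853 and 375. Os03g0273200 stood at 784, 1139.6 and 3283 under P deficiency and 135, 91.8 and 181 in control, with library 3 well above the other 2. The calls of Os01g0127200 and Os03g0273200 ended without control library 1, for the first also without P-deficient library 1 or 2 and for the second without control library 2 (adjusted p 0.052 to 0.058 and 0.052). Class III peroxidases had 2 higher and 5 lower of 134. Without P-deficient library 3 they had 23 and 8, beside 6.33% higher and 4.04% lower over all tested genes. Os06g0547400 fell from 31099.8, 28427 and 21742 to 11226, 9476 and 5868, a call that ended without control library 1 or 2 (adjusted p 0.065 to 0.069).

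Expansins, which loosen walls in growing cells, had 1 higher and none lower of 51 (1.96% called). Cellulose and xyloglucan enzymes had 4 higher and 1 lower of 78 (6.41%). Over all tested genes 6.28% were called with all 6 libraries, 3.58% higher and 2.70% lower. Without P-deficient library 3, expansins had 6 higher and none lower and cellulose and xyloglucan enzymes 19 and 1. Proteins with fasciclin, hydrophobic seed or Ole e I domains then had 28 and 2 in place of 9 and 2. The shares over all tested genes without that library were 6.33% higher and 4.04% lower. Os03g0103200, a hydrophobic seed protein gene, was instead highest in that library, with 42312, 44003 and 66808 under P deficiency and 8232, 6857 and 10826 in control (2.56 ± 0.25 (SE), adjusted p = 0.0017).

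Enzyme families of specialised metabolism held calls in both directions, beside 3.58% higher and 2.70% lower over all tested genes. Cytochrome P450 genes had 23 higher and 18 lower of 272, UDP-glycosyltransferases 11 and 3 of 153, glutathione transferases 11 and 2 of 82, and BAHD acyltransferases 10 and 3 of 92. Leaving out P-deficient library 3 gave counts of 34 and 21, 18 and 6, 14 and 4, and 18 and 3, in that order. Over all tested genes it gave 6.33% higher and 4.04% lower. The adjacent P450 genes Os06g0570566 and Os06g0570600 rose from almost no reads. Os06g0570566 held 95.1, 157 and 32.7 under P deficiency and none in control, at least 97.3-fold higher with 3 reads over the group as the limit. Os06g0570600 held 117, 154 and 34.6 against 2.21, 0.927 and 0.881, with the same order of libraries, 2 highest and 3 lowest. Os01g0627800, another P450 gene, held 34.8, 93.4 and 103, with library 1 the lowest. Among the others, the glutathione transferase Os03g0283200 rose from 90.6, 103 and 117 to 627, 501 and 767 and the acyltransferase Os09g0544000 from 983, 1016 and 1176 to 4628, 5115 and 3446 (2.04 ± 0.16 (SE), adjusted p = 7.0e-04).

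Transcription factor families are given beside the 6.28% called over all genes. WRKY factors had 1 higher and 2 lower of 84, AP2/ERF factors 2 and 3 of 125, NAC factors 6 and 2 of 102 and helix-loop-helix factors 1 and 4 of 83. MYB-like factors, the family of PHR and NIGT1, had 7 and 9 of 169. Without P-deficient library 3, 6.33% of all tested genes were higher and 4.04% lower. The counts were then 1 and 4 for WRKY, 7 and 7 for AP2/ERF and 7 and 2 for NAC factors. They were 6 and 5 for helix-loop-helix, 4 and 11 for bZIP and 20 and 13 for MYB-like factors. The MYB gene Os04g0665600, which carries the coiled-coil domain that PHR proteins have, fell from 2308, 2098 and 2767 to 658, 723 and 726 (-1.76 ± 0.12 (SE), adjusted p = 4.2e-04). Among bZIP factors 9 of 72 were lower and 2 higher, and among NF-Y subunits, which bind CCAAT boxes, 5 of 30 were higher and none lower. The NF-Y gene Os02g0776400 rose from 418, 418 and 519.8 to 1043, 1107 and 841 (1.14 ± 0.14 (SE), adjusted p = 0.0053). The AP2 genes Os03g0815800 and Os07g0227600 rose by 1.37 and 1.14.

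Hormone lists and the families that follow are given beside the 6.28% called over all tested genes. Auxin genes had 7 higher and 3 lower of 112 (8.93%) and cytokinin genes 1 and 1 of 40 (5.0%). Jasmonate genes had 2 and none of 35 (5.71%) and EIN3 factors 1 and none of 7 (14.3%). When P-deficient library 3 was left out, 10.4% of all tested genes were called. Auxin genes then had 16 higher and 3 lower, cytokinin genes 1 and 4 and jasmonate genes 5 and 1. The single EIN3 call, Os04g0456900, ended (limma, adjusted p = 0.066). Ribosomal proteins had 1 higher and 3 lower of 278 and histones 1 and 2 of 40, and 2 and 4 and 1 and 4 without that library. Heat shock proteins and chaperones had 3 higher and 6 lower of 179, and 7 and 8 without that library. Receptor kinases with malectin domains had 7 lower and none higher of 62. In pathogenesis-related families, 7 were higher and 6 lower of 96, and 11 and 9 without it. Os07g0129300, of the cysteine-rich secretory family, rose from 10096, 9446 and 9784 to 30255, 32133 and 24696 (1.56 ± 0.15 (SE), adjusted p = 0.0017), and under N deficiency held 129.7, 461 and 292. The papain-type protease gene Os09g0564400 rose from 2358, 2758 and 3462 to 14322, 15422 and 8472 (2.13 ± 0.25 (SE), adjusted p = 0.0041).

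Large changes also fell on genes outside the lists. The genes of this kind given next, and the falls on chromosomes 6 and 12, were named after their values were seen. Os02g0609000, Os09g0411500, Os02g0208500 and Os05g0542150 have no deposited domain. Os02g0609000 had 423, 419 and 437 under P deficiency and 1.1, 0 and 0.881 in control, a ratio of reads of 666 (95% counting interval 184 to 5501). Os09g0411500 had 242, 214 and 196 against 0, 0 and 0.881, and Os02g0208500 5829, 5401 and 6327 against 129, 92.7 and 133. Os05g0542150 rose from 44.2, 26.9 and 35.2 to 1199, 1138 and 1224, at a locus that overlaps Os05g0542200. Os04g0423400, of the ABA- and stress-induced WDS family, rose from 150.3, 126 and 246 to 5676, 6292 and 9677 (5.38 ± 0.28 (SE), adjusted p = 8.4e-05).

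Falls outside the lists included 3 loci close together on chromosome 6. Os06g0532500, Os06g0533700 and Os06g0534200 start at 19904206, 19950545 and 19972817 in the deposited coordinates. Os06g0532500 fell from 67.4, 49.1 and 56.4 to 0, 0.994 and 0, Os06g0533700 from 50.8, 60.3 and 82.8 to 0, 3.97 and 0.935 and Os06g0534200 from 404, 465 and 492 to 42.9, 65.6 and 29. All 3 kept the groups apart, as did 14.5% of all tested genes in this direction, and the 3 were named after their values were seen. Os12g0236225 fell from 238, 172 and 115 to 2.32, 2.98 and 3.74 (-5.41 ± 0.34 (SE), adjusted p = 2.5e-04). Among the largest falls with a domain were the xylanase inhibitor gene Os01g0608300 (by 3.28), the lipid transfer gene Os03g0167000 (by 2.79), the wall-associated kinase gene Os04g0370900 (by 2.73) and Os02g0137700 (by 2.96), whose domain is that of a complex I assembly protein. The last call reached an adjusted p of 0.051 without control library 2.

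By annotation class, 812 of 18896 protein-coding genes with a domain were higher and 510 lower. Protein-coding genes without one had 297 higher and 288 lower of 9351, 6.26%. Unannotated loci had 49 higher and 70 lower of 1862, 6.39%, and non-coding RNAs 8 and 13 of 2462, 0.853%.

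P-deficient library 3 was set against the log2 mean of P-deficient libraries 1 and 2. Among all tested genes it lay at least 1 below that mean for 2442 and at least 1 above for 2150. Measured the same way against the other 2 P-deficient libraries, library 1 gave 1634 and 1683 and library 2 gave 1681 and 1588. Median log2 departures of library 3 over list members were -0.70 for fasciclin, hydrophobic seed and Ole e I proteins, -0.56 for expansins and -0.31 for PHT1 transporters. They were 0.36 for AP2/ERF factors and 0.63 for iron uptake genes. The root gene RCc3 followed the first set, with 92828, 82342 and 37065 under P deficiency and 59985, 57103 and 54564 in control. Summed reads of expansins were 45434, 46064 and 30757 under P deficiency and 34415, 34993 and 31566 in control. The part of tissue make-up in these departures was not tested.

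Without P-deficient library 3, SPX genes had 9 higher, PHT1 transporters 7, purple acid phosphatases 10, galactolipid and sulfolipid genes 5 and glycerophosphodiester phosphodiesterases 6, with lower calls only for 1 galactolipid gene, DGD2. Iron uptake had 2 higher and 10 lower.

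**Figure D5:**
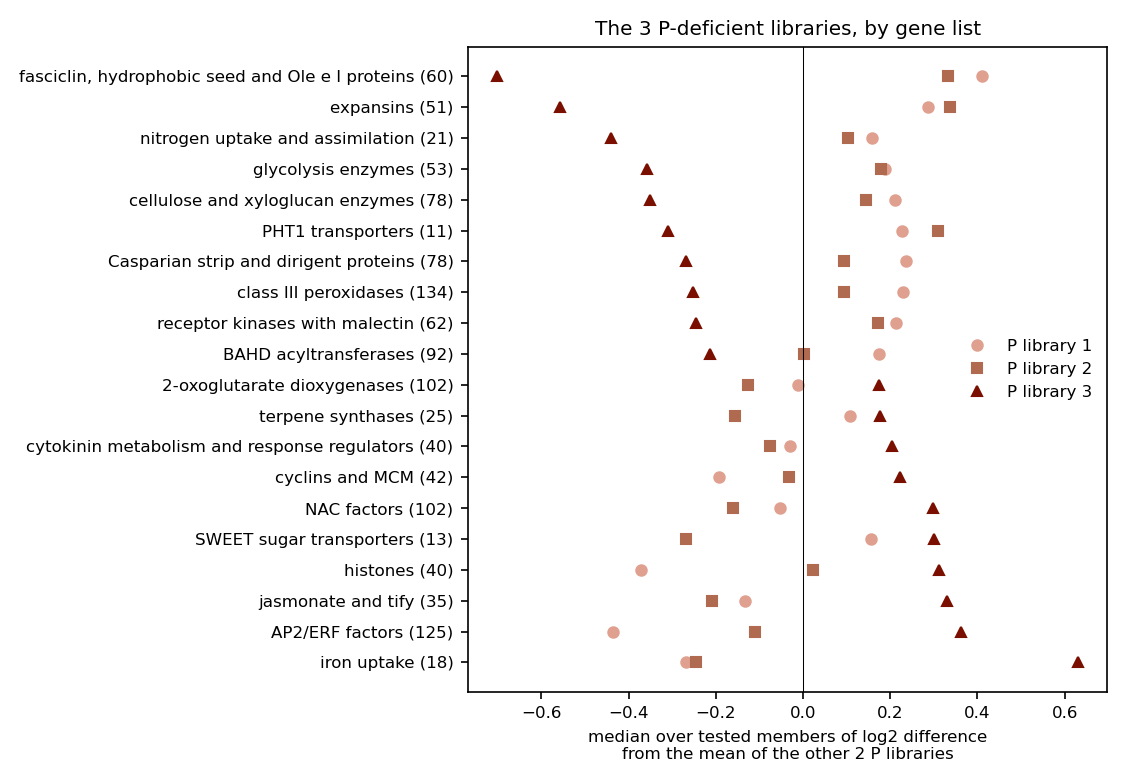
Median over the tested members of a gene list of the log2 difference between 1 P-deficient library and the mean of the other 2 (horizontal axis), for the 10 lists with the lowest and the 10 with the highest value in library 3 among lists of at least 10 members. The lists were chosen on library 3 (triangles), which lies at -0.70 for fasciclin, hydrophobic seed and Ole e I proteins and 0.63 for iron uptake.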

How the data were processed

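RNA from control and P-deficient roots was sequenced as 6 libraries. Per the file headers, the deposited columns used hold 1 value per gene and library, taken here as a size-factor normalised signal. Rescaling each library by 1 factor returned whole reads for 100% of values within 0.001. HISAT2 2.0.5 and, for this rice series, the human build name hg38 stand in the submitters' processing notes. The counter, its strand setting and the rice build were not given in the sources used here. The deposited log2 fold changes and p-values of the authors were not used.

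The test was limma 3.58.1 in R 4.3.3, run on log2(value + 1) with a trended prior variance, for genes with a mean of at least 1 in 1 group. P against N deficiency used recovered reads of 9 libraries rescaled by median-of-ratios factors. Alternatives were edgeR 4.0.16, DESeq2 1.42.0, pseudocounts of 0.1 and 5, other filters, leaving out each library, a replicate block and a joint fit of all 9 libraries. The steps were also tested on simulated reads over 32366 genes. They recovered 91% of 100 genes changed by a factor of 2 and 100% of 100 changed by a factor of 4, with 10 false calls. The simulation gave all genes and libraries the same relative spread and held no departing library. Its changed genes all had a mean of at least 50, so these rates need not hold for the real libraries.

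Lists were matched on deposited domains or, for 93 genes, by locus. Members and lists were chosen with earlier results of these data known. Named genes were the 10 largest rises and falls with a domain, a mean of at least 50 and groups apart, up to 5 called members per list, and the genes listed by locus, and the text prints a choice of them. The labels call the replicates biological without naming their source.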

Additional observations from a re-analysis of the deposited data

How the results depend on the processing

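All 2047 called genes kept their direction in each alternative, except that 2042 did in 1 fit over 9 libraries and 2005 with a mean of at least 10. The filter at a mean of 10 leaves the difference of a gene unchanged, so its remainder had no value in that fit. The remainder of the fit over 9 libraries includes genes without a value there, such as PT10. How many genes reversed in the fit over 9 libraries, if any, was not counted. On the recovered reads edgeR called 1976 genes. DESeq2 called 3256 genes, 1818 higher and 1438 lower, and a limit of 1 on the log2 difference left 1040, 593 and 447. Counts ranged from 696 to 3384 in the fits without 1 library, 459 to 2065 higher and 237 to 1319 lower. The most, 3384, came without P-deficient library 3 and included 1910 of the 2047, and the fewest, 696, without control library 1. Those ranges were 3 to 6 for glycerophosphodiester phosphodiesterases higher, 1 to 2 and 6 to 10 for iron uptake higher and lower, and 1 to 3 and 1 to 8 for nitrogen genes higher and lower. SPX genes had 8 to 9 higher, purple acid phosphatases 7 to 10, PHT1 transporters 7 and galactolipid and sulfolipid genes 5. Counts of the other lists left the 1.5-fold range in 516 of 1590 combinations, 407 of them in fits without 1 library. Of 150 passing genes named by locus or in the text, 98 passed under each alternative and 138 under each that kept 6 libraries. Without 1 library, some genes that did not pass changed sign, with ranges of -0.09 to 0.07 for SPX4, -0.12 to 0.08 for PTF1, -0.14 to 0.12 for PT1, -0.03 to 0.05 for PAP26, -0.15 to 1.13 for CYP711A2, -0.12 to 0.23 for NRT1.1A and -0.05 to 0.61 for RCc3.

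Same-numbered libraries of the groups had correlations of deviations of 0.010, 0.115 and 0.129 for numbers 1, 2 and 3, and differently numbered ones -0.138 to 0.040. P-deficient libraries 2 and 3 correlated best with the control of their number, and library 1 with control library 2 (0.022). The labels do not say that equal numbers share a source, so the numbers were not taken as pairs. With the replicate block limma called 2106 genes, 1223 higher and 883 lower, of which 1659 were shared with the fit without it. NAS1, NAS2, IRT2, AMT1;2 and AMT1;3 were then above the threshold (adjusted p 0.051 to 0.081). SPX-MFS2 missed it in 1 fit over 9 libraries (0.15), IRT2 and AMT1;3 with edgeR (0.074 and 0.09), IRT2 with a pseudocount of 0.1 (0.087) and AMT1;3 with one of 5 (0.068). Of 24 genes compared between P and N deficiency, 23 kept their side of the threshold with edgeR. The planned promoter comparison was not run. Precision was limited by 3 libraries a group and, for genes with few reads, by depth. The cause of each shift was not tested.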
